A study of Mus musculus with 8 samples.

Results

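The genes described here are 8 costimulatory and adhesion ligands through which antigen-presenting cells engage T cells: Cd80, Cd86, Cd40, Icosl, Cd70, Tnfsf4, Icam1 and Cd274. They were chosen by name, as 8 of the 32285 genes counted, and followed through the B cell subsets, dendritic cells and CD4+ T cells of the mouse spleen. The study asked how loss of Eif3e, a subunit of translation initiation factor eIF3, in activated B cells changes splenic lymphocytes. Single-cell RNA sequencing was run on 8 libraries from C57BL/6J mice aged 2 months. The cKO mice carried Eif3e fl/fl, Cγ1Cre and Rosa26-YFP LSL, and the control mice carried Cγ1Cre and Rosa26-YFP LSL, so Cre and the reporter were common to both genotypes. From each genotype live total splenocytes and sorted YFP+ cells, which have undergone Cre recombination, were loaded, giving 4 groups, control total and control YFP+ and their cKO counterparts, with 2 libraries each, 1 per batch. Each library held cells pooled from several mice, so no value belongs to 1 animal. Cγ1Cre comes on when activated B cells transcribe the γ1 constant gene of the heavy chain, so total splenocytes of the cKO are mostly cells in which recombination has not taken place.

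A T cell that meets its peptide on an antigen-presenting cell needs further signals to divide and differentiate. CD80 and CD86, the B7 ligands, bind CD28 on T cells and the inhibitory receptor CTLA-4. ICOSL engages ICOS, which follicular helper T cells depend on, CD70 and OX40L (Tnfsf4) are TNF family ligands of CD27 and OX40, and CD40 receives CD40L from helper T cells. ICAM-1 binds the integrin LFA-1 and holds the contact together, whereas PD-L1 (Cd274) engages PD-1 and restrains the T cell. Resting B cells are known to carry little CD80 and to raise B7 ligands after activation.

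On GRCm38, Cd80 (ENSMUSG00000075122) lies on chromosome 16 at 38455561 to 38496335, plus strand, and Cd86 (ENSMUSG00000022901) on the same chromosome at 36603869 to 36666081, minus strand. Cd40 (ENSMUSG00000017652) spans 165055627 to 165072948 of chromosome 2, plus strand, and Icosl (ENSMUSG00000000732) spans 78069302 to 78083913 of chromosome 10, plus strand. The TNF family ligand genes are Cd70 (ENSMUSG00000019489), chromosome 17, 57145997 to 57149777, minus strand, and Tnfsf4 (ENSMUSG00000026700), chromosome 1, 161395409 to 161418410, plus strand. Icam1 (ENSMUSG00000037405) lies on chromosome 9 at 21015985 to 21028817 and Cd274 (ENSMUSG00000016496) on chromosome 19 at 29367455 to 29388095, both on the plus strand.

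The RefSeq promoter table held entries for 4 of the 8 genes. The 250 bases before the start are printed for Cd80, Icam1 and Cd274, the members with an entry whose counts differed between genotypes in the YFP+ cells described next, so that the sequence upstream of a gene that was higher can be read beside one that was lower. They are GRCm38.p6, plus strand, 5′ to 3′: chr16:38458683-38458932 for Cd80, where the RefSeq start lies inside the annotated span above, chr9:21015690-21015939 for Icam1 and chr19:29367188-29367437 for Cd274. Capitals mark a match to GGANNTTCC on either strand, a form of the NF-κB site that was chosen after the sequences had been seen.
Cd80: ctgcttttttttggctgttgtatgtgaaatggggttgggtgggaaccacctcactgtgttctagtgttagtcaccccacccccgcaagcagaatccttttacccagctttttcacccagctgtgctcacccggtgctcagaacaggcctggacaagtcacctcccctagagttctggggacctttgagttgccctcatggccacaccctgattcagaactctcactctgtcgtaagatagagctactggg
Icam1: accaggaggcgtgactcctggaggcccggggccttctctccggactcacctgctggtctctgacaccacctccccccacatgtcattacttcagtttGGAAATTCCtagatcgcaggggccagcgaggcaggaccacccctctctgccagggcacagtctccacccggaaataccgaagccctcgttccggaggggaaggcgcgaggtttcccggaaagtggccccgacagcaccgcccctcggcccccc
Cd274: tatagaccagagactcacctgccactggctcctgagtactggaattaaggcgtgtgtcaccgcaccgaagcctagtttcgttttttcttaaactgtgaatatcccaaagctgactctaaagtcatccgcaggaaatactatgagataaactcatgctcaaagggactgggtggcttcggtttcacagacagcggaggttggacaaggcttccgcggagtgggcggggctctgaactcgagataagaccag
The motif was found in 1 of the 4 members with an entry, Icam1, 153 bases before the start, and in 1169 of 32536 RefSeq promoters of the same length (3.593%). It had no match in the windows of Cd80, Icosl or Cd274. Cd86, Cd40, Cd70 and Tnfsf4 had no entry.

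After filtering, 83704 of 83967 barcodes were kept, with 71894780 to 105224903 UMIs per library and a median of 5250 to 6810.5 UMIs per cell. Cells were clustered with the 8 ligands, their receptors, related ligands and Eif3e left out, and clusters were named from marker genes as "-like" classes. Levels below are CPM, the UMIs of a gene per 1000000 UMIs summed over the cells of a class in 1 library. The UMIs come from the 3′ ends of transcripts and carry no length scaling, so a level is compared between cells for the same gene only. The targeted gene, Eif3e, did not separate whole libraries, at 227 to 289 CPM in the control libraries and 235 to 288 CPM in the cKO libraries. The floxed allele removes an exon not given in the sources used here, so 3′ tags may lie outside the deleted stretch. In the cycling YFP+ pre-GCB-like cells described below, Eif3e was 264 and 291 CPM in control and 123 and 126 CPM in cKO (a log2 change of −1.11, SE 0.16, adjusted p = 0.00129, edgeR quasi-likelihood test with Benjamini-Hochberg adjustment over all genes, as for every adjusted p below unless another test is named). It did not pass in the other YFP+ B cell classes tested. Its values were higher in cKO than in the same-batch control library in YFP+ naive B-like cells (209 and 263 CPM, then 291 and 368 CPM), MZB-like (250 and 295 CPM, then 282 and 369 CPM), B1-like (257 and 301 CPM, then 303 and 387 CPM) and interferon-response B-like cells (239 and 300 CPM, then 272 and 357 CPM). They were close in GCB-like cells (265 and 297 CPM, then 271 and 303 CPM). In the other pre-GCB-like cluster they were 285 and 311 CPM against 250.5 and 250.1 CPM. In cycling pre-GCB-like cells of the total libraries Eif3e was 266 and 283 CPM in control and 205 and 223 CPM in cKO. That difference did not pass (a log2 change of −0.34, adjusted p = 0.584). The share of recombined cells among these total cells was not measured.

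In the control spleen each ligand had its own distribution (2 control total libraries, mean ± SD, n = 2). Cd80 was highest in mature DC-like cells, at 395 ± 160 CPM, and in cDC2-like cells, at 215 ± 76.0 CPM, 2 classes whose spreads overlapped, and it was 1.99 ± 1.34 CPM in naive B-like cells. Among B cells Cd80 stood at 67.7 ± 19.9 CPM in B1-like and 63.6 ± 10.6 CPM in T-bet+ B-like cells, a pair that did not differ beyond its spread, then at 16.3 ± 2.25 CPM in MZB-like and 14.7 ± 12.9 CPM in pre-GCB-like cells, which also overlapped. Cd86 was broader, from 540 ± 96.8 CPM in MZB-like and 314 ± 77.4 CPM in naive B-like cells to 21.2 ± 19.4 CPM in plasma cell-like cells, with 656 ± 56.9 CPM in mature DC-like cells.

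Cd40 lay between 58.7 and 66.6 CPM in pre-GCB-like, interferon-response, transitional, MZB-like and naive B-like cells, and was 7.95 ± 4.59 CPM in plasma cell-like cells. Icosl was 234 ± 17.1 CPM in mature DC-like cells and 78.4 ± 3.62 CPM in naive B-like cells, against 22.5 ± 0.131 CPM in pre-GCB-like and 12.2 ± 2.93 CPM in B1-like cells. Cd274 was 429 ± 165 CPM in mature DC-like, 247 ± 57.4 CPM in MZB-like and 15.5 ± 2.28 CPM in GCB-like cells. The TNF family ligands were scarce. Tnfsf4 reached 7.56 ± 3.22 CPM in B1-like cells, and Cd70 had its highest control means, 4.45 ± 0.967 and 3.27 ± 4.62 CPM, in mature DC-like and GCB-like cells. The former rests on 1 Cd70 UMI in each library, among the 25 and 21 mature DC-like cells. The latter rests on UMIs of 1 library only, so the Cd70 means rank no class.

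**Figure D1:**
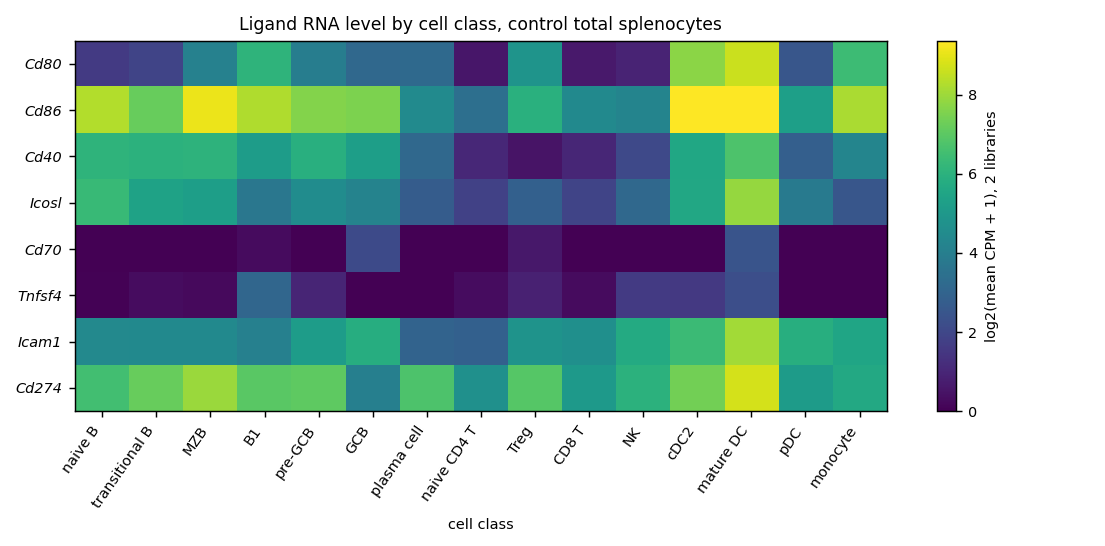
Heat map of log2(mean CPM + 1) for the 8 ligands (rows) in 15 cell classes (columns) of the control total libraries, mean of 2 libraries. Mature DC-like cells hold the highest control level of Cd80 (395 CPM), Icosl (234 CPM) and Cd274 (429 CPM), whereas Cd70 and Tnfsf4 stay below 8 CPM in every class drawn.

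Pre-GCB-like cells, activated B cells that precede the germinal center program, made up 3.64 and 3.28% of the control YFP+ libraries and 18.6 and 18.4% of the cKO YFP+ libraries. These shares, from 338 and 382 control and 1881 and 1929 cKO cells, depended on the clustering. At resolution 1.5 the class held 1349 and 1898 control and 1536 and 1681 cKO cells, which overlapped. Without centring the libraries it held 997 and 962 against 1773 and 1888 cells. With classes defined on control cells it held 338 and 382 against 1056 and 1207. Pre-GCB-like cells fell into 2 clusters, and the genotypes differed in how cells were spread over them: a cycling cluster led by Fabp5, Tmem176b, Top2a and Pclaf held 32.083% of the control and 39.633% of the cKO YFP+ pre-GCB-like cells, and the remainder formed a cluster led by Ccnd2, Mreg, Bcl2a1d and Il4i1. The 2 clusters were separated after the result for the whole class was known, and both are given. Over the whole class 6 of the 8 ligands passed the test, 4 higher and 2 lower in cKO, where 9.96% of 12937 genes passed (4.86% higher and 5.09% lower). By DESeq2 6 members passed (9.36% of genes) and with the batch fitted as a block 7 did, Cd40 added (28% of genes), while 7 had an unadjusted p under 0.05 (24% of genes). The libraries of the genotypes did not overlap for 54.3% of all genes. The members' median log2 fold change was 0.60, against 0.01 over all genes tested.

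The B7 ligands moved in opposite directions in the cycling YFP+ cells. Cd80 was 54.4 and 29.8 CPM in the control YFP+ and 119 and 111 CPM in the cKO YFP+ libraries. The control libraries differed from each other more than the cKO libraries did. The log2 fold change was 1.47 (SE 0.23, adjusted p = 0.00182). Cd86 was 165 and 141 CPM in control and 40.02 and 37.5 CPM in cKO, a log2 fold change of −1.94 (SE 0.16, adjusted p = 7.08e-05). In these cells 6 of the 8 members passed, 4 higher and 2 lower, where 23.9% of 12122 genes passed (11.1% higher and 12.7% lower).

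Among the TNF family ligands, Tnfsf4, the OX40 ligand, was near its floor in control. It had 2.24 CPM (6 UMIs) and 0 CPM in the control and 57.8 and 53.5 CPM in the cKO libraries, a log2 fold change of 5.33 (SE 0.42, adjusted p = 5.24e-05) that rests on those 6 control UMIs. It was high enough to be tested through the cKO libraries alone, yet is counted among the 6 members that passed. Cd70, the CD27 ligand, went from 1.86 and 3.54 CPM to 16.4 and 12.03 CPM (a log2 change of 2.42, SE 0.37, adjusted p = 0.00155). Cd40, the receptor on B cells for helper T cell CD40L, was 41.4 and 55.1 CPM in control and 70.2 and 67.9 CPM in cKO. It did not pass (a log2 change of 0.56, SE 0.19, adjusted p = 0.0593), but did so under 3 of 10 alternative settings. The batch fitted as a block was among them (adjusted p = 0.00702).

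Icam1, the LFA-1 ligand, rose from 45.1 and 40.98 CPM to 77.7 and 79.5 CPM (a log2 change of 0.91, SE 0.17, adjusted p = 0.00452). Cd274, which encodes PD-L1, fell from 66.3 and 62.7 CPM to 19.1 and 14.3 CPM (a log2 change of −1.90, SE 0.19, adjusted p = 0.000166). For both genes the spread between the libraries of a genotype was small. Icosl was 10.4 and 11.1 CPM in control and 9.9 and 6.72 CPM in cKO (a log2 change of −0.33, adjusted p = 0.437). The 6 members that passed did so under 10 of 10 alternative settings of this comparison, none of which clustered the cells anew. Over the whole class, where settings with new clusters were included, Cd80 passed under 12 of 17.

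In the other YFP+ pre-GCB-like cluster 1 member passed, Cd274, where 2.71% of 11028 genes passed. Cd274 was 184 and 122 CPM in control and 59.0 and 28.3 CPM in cKO (a log2 change of −1.70, SE 0.34, adjusted p = 0.012), and the call was lost without the second cKO YFP+ library (a log2 change of −1.29, adjusted p = 0.164). Cd80 was 43.9 and 15.5 CPM in control against 19.7 and 15.05 CPM in cKO, which overlapped (a log2 change of −0.64, adjusted p = 0.474). Cd86 was 372 and 279 CPM against 213 and 130 CPM (a log2 change of −0.81, adjusted p = 0.253). Tnfsf4 stayed at 5.03 CPM or less in all 4 libraries. With the batch as a block 3 members passed, among 14.5% of genes, the added ones being Cd86 (blocked adjusted p = 0.000509) and Cd40 (92.4 and 80.7 CPM in control, 114 and 114 CPM in cKO, blocked adjusted p = 0.0242).

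The genotype difference itself was compared between the clusters within the YFP+ libraries, and 4 of 8 members passed, where 19.5% of 11826 genes did. The difference was greater in the cycling cluster by 2.12 on the log2 scale for Cd80 (SE 0.28, adjusted p = 7.92e-12), by 3.86 for Tnfsf4 (SE 1.10, adjusted p = 0.00457) and by 2.17 for Cd70 (SE 0.76, adjusted p = 0.0258; DESeq2 adjusted p = 0.739). Tnfsf4 was near its floor in the control libraries of both clusters. Cd86 had the opposite sign, −1.09 (SE 0.23, adjusted p = 4.02e-05). Icam1 (0.50, adjusted p = 0.147) and Cd274 (−0.14, adjusted p = 0.721) did not pass, so their genotype differences were not shown to depend on the cluster. Eif3e passed in the same fit, at −0.97 (adjusted p = 0.000318).

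Cycling YFP+ cells also held more UMIs in cKO, with medians of 28861 and 29253.5 against 21257 and 16655 in control. Over all cells the medians were 5894 and 6606 in the cKO YFP+ and 6810.5 and 6262.5 in the control YFP+ libraries. Shares of cells were therefore compared after thinning each cell to 2000 UMIs (Wilson 95% intervals, which cover counting error only). Thinning removes a difference in UMIs per cell whatever its source. Cd80 was detected in 9.48% (5.38 to 16.2) and 1.75% (0.482 to 6.17) of the control and in 15.1% (12.7 to 17.99) and 12.1% (9.99 to 14.5) of the cKO cells, with the first control interval overlapping both cKO intervals. Before thinning the shares were 43.1 and 24.3% in control and 52.7 and 42.1% in cKO. Tnfsf4 was detected in 0.862% and 0% of the control and 6.29% (4.72 to 8.33) and 6.09% (4.64 to 7.97) of the cKO cells, against 0.862, 0, 23.7 and 21.6% before thinning. Taken as 3 counts of the total, the 0 of 114 control cells allows up to 2.63% of thinned cells with a UMI.

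As a measure of free RNA in the YFP+ libraries, naive CD4 T-like cells had Cd80 in 0.746% of 134 and 0% of 26 thinned control cells and 0% of 97 in the first cKO library, and Tnfsf4 in 0% of each, at medians of 5139, 3505 and 4777 UMIs. With 3 counts taken as the limit, 0 cells allow up to 2.24, 11.5 and 3.09%. The second cKO YFP+ library held 7 such cells, too few to be read. In the total libraries such cells had Cd80 in 0 to 0.173% and Tnfsf4 in 0 to 0.171% of thinned cells (medians of 5840.5 to 7136.5 UMIs). Cd86 was found in 29.3 and 22.8% of thinned control and 10.4 and 9.20% of thinned cKO cycling cells, and Cd274 in 11.2 and 8.77% against 5.14 and 3.86%.

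**Figure D2:**
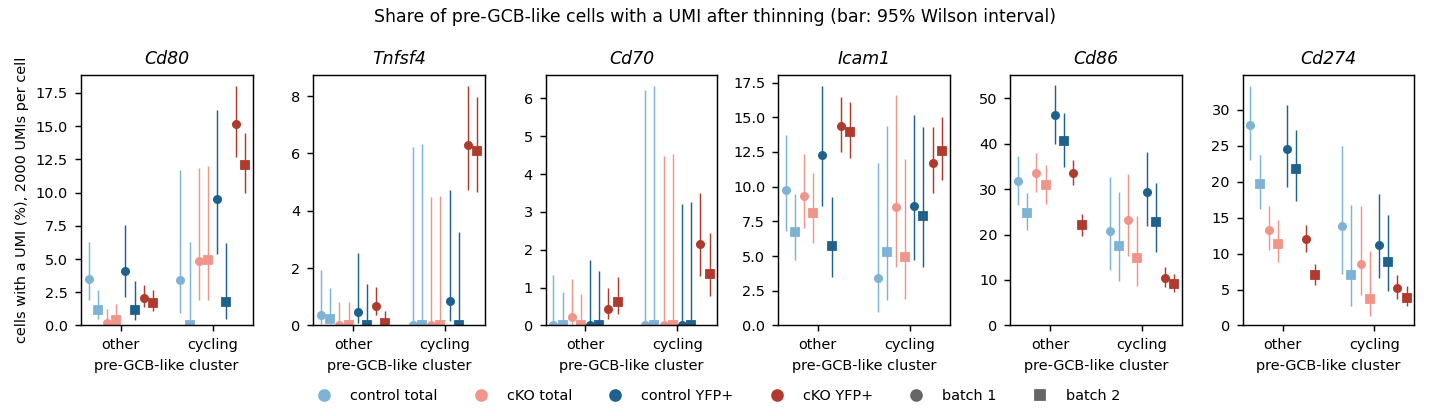
Percent of pre-GCB-like cells with a UMI of each gene after thinning to 2000 UMIs per cell (vertical axis, bars are Wilson 95% intervals), in the other and the cycling cluster of all 8 libraries. In the cycling cluster of the cKO YFP+ libraries Tnfsf4 is found in 6.29 and 6.09% of cells and Cd86 in 10.4 and 9.20%, against 29.3 and 22.8% for Cd86 in control YFP+.

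Markers of other cell types were summed in the same YFP+ pre-GCB-like cells. A list of 8 mature dendritic cell markers had a higher sum in cKO, at 271 and 262 CPM in control and 749 and 831 CPM in cKO, with 1 marker (Cacnb3) at 0 in each control library. Most of that sum was Il4i1, a leading gene of 1 of the 2 clusters (92.2 and 119 CPM in control, 356 and 439 CPM in cKO), and Tmem123 (129 and 114 CPM, then 301 and 357 CPM). Fscn1, a defining marker of mature dendritic cells (1212 and 934 CPM in the mature DC-like cells of control total), was 24.9 and 22.98 CPM in control and 53.9 and 21.8 CPM in cKO, and Ccl22 was 22.9 and 3.4 CPM against 34.3 and 10.96 CPM, both with overlap. The T cell list overlapped, with 23.3 and 31.8 CPM against 35.6 and 29.99 CPM, and the B cell list was 4158 and 4541 CPM against 3404 and 3248 CPM. Without overlap, the plasma cell list was lower in cKO (905 and 797 CPM, then 537 and 403 CPM), as were the cDC1 list (371 and 299 CPM, then 236 and 231 CPM) and the monocyte list (42.1 and 35.7 CPM, then 22.9 and 16.8 CPM). The GCB list (154 and 171 CPM, then 295 and 257 CPM) and the cDC2 list (30.1 and 25.5 CPM, then 43.4 and 39.2 CPM) were higher. The part of these markers in the ligand results was not tested.

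Beside the total splenocytes of the same genotype, 5 of 8 members passed in the cKO pre-GCB-like class, 4 higher and 1 lower in YFP+ cells, where 4.63% of genes passed. By DESeq2 6 passed and with the block 8, a setting that also raised the share of all genes in the comparisons above. In the cycling cluster alone 4 passed, where 7.82% of genes did, with 4 by DESeq2 and 7 with the block. There Cd80 was 18.2 and 21.3 CPM in the cKO total and 119 and 111 CPM in the cKO YFP+ libraries (a log2 change of 2.64, adjusted p = 0.000903), Cd86 was 108 and 102 CPM against 40.02 and 37.5 CPM (−1.32, adjusted p = 0.00421), and Icam1 was 39.98 and 42.1 CPM against 77.7 and 79.5 CPM (1.05, adjusted p = 0.00831). Tnfsf4 was 0 and 5.55 CPM against 57.8 and 53.5 CPM (4.31, adjusted p = 0.0104; DESeq2 adjusted p = 0.199), and was high enough to be tested through the YFP+ libraries alone. In control, Icam1 alone passed, at 22.2 and 13.1 CPM in total and 45.1 and 40.98 CPM in YFP+ cells (1.29, adjusted p = 0.049, DESeq2 0.198, where 0.759% of genes passed). With the block 3 members passed (5.68% of genes), Cd80 (30.1 and 6.17 CPM in total, 54.4 and 29.8 CPM in YFP+ cells, 1.24, blocked adjusted p = 3.36e-05) and Cd40 (25.8 and 21.6 CPM, then 41.4 and 55.1 CPM, 1.05, blocked adjusted p = 0.00043) being added, each higher in YFP+ cells within both batches.

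In pre-GCB-like cells of total splenocytes no ligand passed the test between genotypes. In the class as a whole 0 of 6 members tested passed (0.407% of genes), 1 at an unadjusted p under 0.05 (5.32% of genes), 0 by DESeq2 (0.935%) and 2 with the block (6.75%). In the cycling cluster of the total libraries 0 of 6 passed (0.752% of genes), 2 at an unadjusted p under 0.05 (10.2%), 0 by DESeq2 (0.696%) and 3 with the block (3.21%), among them Icam1 (22.2 and 13.1 CPM in control, 39.98 and 42.1 CPM in cKO, a log2 change of 1.18, adjusted p = 0.0751, and 0.0237 when blocked by batch). The test of whether the genotype difference in the cycling cluster differs between YFP+ and total cells passed for 0 of 8 members (0.387% of genes), 1 at an unadjusted p under 0.05 (11.8%), 1 by DESeq2 (1.45%) and 2 with the block (7.64%), namely Cd86 (DESeq2 adjusted p = 0.0124, blocked 0.000351) and Cd80 (blocked 0.0193). The same test over the whole class passed for 0 of 8 (0% of genes), 4 at an unadjusted p under 0.05 (8.66%), 0 by DESeq2 (0.647%) and 4 with the block (13.7%). Those 4 were Cd80 (blocked adjusted p = 0.000483), Cd86 (2.49e-05), Cd274 (0.000278) and Tnfsf4 (0.0172). Cd86 in the cycling cluster thus passed both by DESeq2 and with the block, and the other calls of these 2 tests were made with the block alone.

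The ligands' receptors and related ligands were read in the same cycling YFP+ cells, where 23.9% of all genes passed. Of 9 receptor genes 4 were high enough to be tested and 2 fell, both chains of LFA-1: Itgal (40.6 and 48.6 CPM in control, 27.9 and 18.4 CPM in cKO, a log2 change of −0.90, adjusted p = 0.0185) and Itgb2 (44.3 and 64.3 CPM, then 25.6 and 25.97 CPM, −1.02, adjusted p = 0.00696). Of 17 related ligands 15 were tested, 2 rose and 3 fell. Control had 116 and 115 of these cells and cKO 704 and 806, and Vcam1, Tnfsf8, Cd276 and Vsir were near the floor in control. Vcam1, an adhesion ligand of the integrin VLA-4, went from 2.98 and 0 CPM to 11.2 and 7.57 CPM (2.41, adjusted p = 0.0199). Tnfsf8, the CD30 ligand, was 0 and 0 CPM in control and 1.71 and 1.498 CPM in cKO (adjusted p = 0.0275). It was high enough to be tested through the cKO libraries alone. The coinhibitory ligands Cd276 (1.49 and 2.02 CPM, then 0.225 and 0.269 CPM, adjusted p = 0.0321) and Vsir (4.47 and 2.53 CPM, then 0.855 and 0.538 CPM, adjusted p = 0.0167) and the SLAM family gene Cd84 (43.6 and 41.5 CPM, then 20.8 and 19.3 CPM, −1.04, adjusted p = 0.00243) were lower. In the other cluster Pdcd1lg2, which encodes PD-L2, was lower (75.1 and 57.5 CPM, then 29.7 and 26.8 CPM, −1.10, adjusted p = 0.0427) and Slamf6 higher (103 and 88.5 CPM, then 206 and 191 CPM, 1.17, adjusted p = 0.0468).

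In the pre-GCB-like YFP+ class as a whole Itgal was also lower in cKO (56.4 and 49.9 CPM, then 35.3 and 21.9 CPM, adjusted p = 0.0494), as were Pdcd1lg2 (36.2 and 30.6 CPM, then 17.7 and 19.2 CPM, adjusted p = 0.0341) and Cd84 (68.4 and 66.1 CPM, then 41.4 and 33.8 CPM, adjusted p = 0.0317). Vcam1 (2.27 and 0.284 CPM, then 8.59 and 5.17 CPM, adjusted p = 0.0218) and Tnfsf8 (0 and 0 CPM, then 1.55 and 1.71 CPM, adjusted p = 0.0171) were higher. Both were near the floor in control, and Tnfsf8 was high enough to be tested through the cKO libraries alone. The genotype difference was more negative in the cycling than in the other cluster for the receptors Ctla4 (−1.32) and Itgb2 (−1.10) and for Slamf6 (−1.27), Lgals9 (−0.89) and Cd48 (−0.72), and more positive for Tnfsf9, the 4-1BB ligand (2.01), and Pdcd1lg2 (1.4996), each with an adjusted p of 0.0135 or less. By DESeq2 Ctla4 (adjusted p = 0.0506), Lgals9 (0.136) and Tnfsf9 (0.129) did not pass. The genotype difference was more negative in pre-GCB-like than in naive B-like cells for Itgb2 (−0.72), Itgal (−0.48), Cd84 (−0.61) and Slamf6 (−0.57), and more positive for the SLAM family gene Slamf1 (1.14), each with an adjusted p of 0.0295 or less. By DESeq2 1 receptor and 2 related ligands passed in that comparison of classes. Between sorts in cKO, Cd84 was lower in the YFP+ cells of the whole class (93.9 and 87.8 CPM in total, 41.4 and 33.8 CPM in YFP+, adjusted p = 0.0161), and in the cycling cluster Cd84, Lgals9 and Pdcd1 were (adjusted p = 0.00678, 0.0261 and 0.0355). Slamf1 was higher in control YFP+ than in control total cycling cells (8.61 and 6.17 CPM, then 19.002 and 44.5 CPM, adjusted p = 0.049, DESeq2 0.0534).

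Naive B-like cells were counted next, with 2096 and 2672 cells in the control YFP+ and 5391 and 7043 in the cKO YFP+ libraries. Of the 8 members 6 were high enough to be tested and 0 passed (0.523% of 12631 genes, 0.396% higher and 0.127% lower), 3 at an unadjusted p under 0.05 (10.4% of genes), 1 by DESeq2 (2.62%) and 3 with the block (17.1%). Cd80 was 8.33 and 8.88 CPM in control and 2.49 and 1.65 CPM in cKO, a difference in the direction opposite to the cycling pre-GCB-like cells (a log2 change of −1.88, SE 0.31, adjusted p = 0.0529, and 0.00103 when blocked by batch, DESeq2 0.000427). Icosl was 74.3 and 54.5 CPM against 42.6 and 24.04 CPM (−0.81, adjusted p = 0.368, and 0.00108 when blocked by batch) and Cd274 103 and 77.8 CPM against 56.2 and 36.3 CPM (−0.83, adjusted p = 0.308, and 0.000535 when blocked by batch). None of these 3 genes overlapped between genotypes, and neither did 40.2% of all genes tested.

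Different clusters held most of this class in the 2 genotypes: 1 cluster held 98.7% of control total and 97.1% of control YFP+ naive B-like cells, whereas 3 others held 51.4, 32.7 and 14.6% of the cKO YFP+ ones, 2 of them with Il4i1 among their 10 leading genes. In the cluster that held most control cells, Cd80 was 8.46 CPM in control YFP+ cells. It was 5.69 CPM in the cKO YFP+ cells there, from 4 UMIs in 173 cells. In this class the genotype difference and the spread of cells over clusters cannot be told apart. The genotype difference differed between pre-GCB-like and naive B-like YFP+ cells for 5 of 8 members, where 13.9% of genes passed. By DESeq2 4 passed (6.61% of genes), without Icosl (DESeq2 adjusted p = 0.223). With the block 6 passed (19.9%), Cd40 being added (0.36, blocked adjusted p = 0.0101). Cd80 differed by 3.17 on the log2 scale (adjusted p = 5.74e-09), Icam1 by 0.71 (adjusted p = 0.000725) and Icosl by 0.59 (adjusted p = 0.0289), a sign that turned to −0.47 at clustering resolution 1.5. Cd86 (−0.96, adjusted p = 6.49e-07) and Cd274 (−1.03, adjusted p = 1.21e-08) had the opposite sign, a more negative difference in pre-GCB-like cells.

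In naive B-like cells of total splenocytes 0 of 6 members tested passed (0.199% of genes, 0.00794% of genes being lower), 2 at an unadjusted p under 0.05 (6.97%), 0 by DESeq2 (1.72%) and 2 with the block (18.4%). Those 2 were Icosl (81.0 and 75.9 CPM in control, 53.3 and 40.7 CPM in cKO, a log2 change of −0.65, blocked adjusted p = 4.81e-05) and Cd274 (96.1 and 85.2 CPM, then 61.4 and 46.1 CPM, −0.66, blocked adjusted p = 2.88e-05). Neither overlapped between genotypes, as was the case for 33.2% of all genes. Between sorts, the control naive B-like cells had Cd80 at 2.94 and 1.04 CPM in total and 8.33 and 8.88 CPM in YFP+ cells (2.07, adjusted p = 0.337, and 4.84e-05 when blocked by batch, DESeq2 0.00667). In that comparison 0 of 6 members passed by edgeR (0.00834% of genes), 1 at an unadjusted p under 0.05 (2.98%), 1 by DESeq2 (0.509%) and 2 with the block (6.16%). In cKO 0 of 6 passed (0% of genes), and 0 at an unadjusted p under 0.05 (3.78%), 0 by DESeq2 (0.467%) and 2 with the block (24.7%).

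GCB-like cells, the germinal center B cells, numbered 1658 and 3388 in the control YFP+ and 347 and 207 in the cKO YFP+ libraries. Of 7 members tested 0 passed (1.2% of genes, 0.404% of genes being lower), 3 at an unadjusted p under 0.05 (8.66%), 0 by DESeq2 (2.19%) and 3 with the block (8.9%): Icosl (22.7 and 21.8 CPM in control, 11.96 and 11.995 CPM in cKO, a log2 change of −0.85), Cd86 (238 and 165 CPM, then 144 and 118 CPM, −0.57) and Cd274 (16.2 and 16.02 CPM, then 11.96 and 6.75 CPM, −0.72). The libraries did not overlap for these 3 genes, nor for 34.6% of all genes. Cd80 and Tnfsf4 were 7.10 ± 0.857 and 0.204 ± 0.0655 CPM in the cKO YFP+ GCB-like cells. When classes were defined on control cells alone 7 members passed, with Cd80 at a log2 fold change of 3.47, while 24.2% of all genes passed (3204 against 145), so the result depends on which cells are called GCB-like. The 1 related ligand that passed was Pdcd1lg2, higher in cKO (6.99 and 9.07 CPM, then 35.6 and 23.7 CPM, 1.89, adjusted p = 0.0132).

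In the MZB-like and B1-like classes of the YFP+ libraries Cd80 was lower in cKO. In MZB-like cells, the marginal zone B cells, it fell from 33.7 and 20.7 CPM to 7.93 and 5.58 CPM (a log2 change of −1.90, adjusted p = 0.0131), the 1 member of 6 tested that passed (0.791% of genes). There 2 passed at an unadjusted p under 0.05 (7.42%), 2 by DESeq2 (1.29%) and 3 with the block (11.4%), the others being Cd274 (329 and 183 CPM, then 140 and 72.9 CPM, −1.23, blocked adjusted p = 3.19e-19) and Cd86 (714 and 561 CPM, then 509 and 377 CPM, −0.49, blocked adjusted p = 6.84e-05). In B1-like cells it fell from 103 and 85.2 CPM to 39.1 and 29.4 CPM (−1.34, adjusted p = 0.0423), the 1 of 8 that passed (1.16% of genes), beside 5 at an unadjusted p under 0.05 (10.9%), 2 by DESeq2 (1.72%) and 5 with the block (17.7%). B1-like Cd86 was 458 and 350 CPM in control and 171 and 126 CPM in cKO (−1.33, adjusted p = 0.064, and 5.32e-20 when blocked by batch). The other 3 with the block were Cd274 (152 and 111 CPM, then 94.3 and 53.9 CPM, blocked adjusted p = 2.04e-06), Icosl (18.4 and 13.3 CPM, then 8.85 and 7.28 CPM, 0.00293) and, higher in cKO, Icam1 (19.6 and 20.3 CPM, then 28.4 and 26.1 CPM, 0.0104). A cluster within the MZB-like class was led by haemoglobin genes. The B1-like class pooled a cluster with Apoe and Il5ra among its leading genes with another led by Parm1. It made up 15.1 and 13.9% of the control YFP+ and 4.51 and 2.98% of the cKO YFP+ libraries. No cluster was named memory B, so memory cells may lie within these or other classes. How the genotypes were spread over the clusters of these classes was not tested.

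In plasma cell-like YFP+ cells the 1 of 8 members that passed was Cd40, which antibody-secreting cells normally carry at low levels (1.3% of genes passed). Of the 8 members 7 had a positive log2 fold change, with a median of 1.09 against −0.01 over all genes. There 5 passed at an unadjusted p under 0.05 (9.51%), 2 by DESeq2 (1.37%) and 3 with the block (1.6%). Cd40 was 7.26 and 5.47 CPM in control and 21.5 and 19.1 CPM in cKO (a log2 change of 1.67, adjusted p = 0.00597), and Icam1 was 12.5 and 10.1 CPM against 25.003 and 24.04 CPM (1.13, adjusted p = 0.0519, and 0.045 when blocked by batch). Tnfsf4, which passed by DESeq2 (adjusted p = 1.99e-05) and with the block (0.0269), was 0.275 and 0.296 CPM in control and 1.54 and 14.5 CPM in cKO (edgeR adjusted p = 0.178). The 38 UMIs of the second cKO library came from 4 cells. Among the related ligands Slamf1 passed there (4.84 and 6.71 CPM, then 16.2 and 14.5 CPM, adjusted p = 0.0382), but not by DESeq2 or with the block. Plasma cell-like YFP+ cells numbered 894 and 1045 in control and 115 and 90 in cKO. The T-bet+ and interferon-response YFP+ cells gave 0 of 7 and 0 of 5 members past the test (0.103 and 0.786% of genes), with 0 and 1 at an unadjusted p under 0.05 (4.16 and 6.87%), 0 and 0 by DESeq2 (0.0561 and 0.555%) and 0 and 0 with the block (0.635 and 4.74%). Of the receptors Ctla4 was lower in cKO interferon-response cells (64.7 and 26.9 CPM in control, 13.01 and 9.17 CPM in cKO, adjusted p = 0.0289, DESeq2 0.482).

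Cd80 was also counted in the CD4+ T cell classes of the total spleen. The sum over the 4 CD4 T classes had 6.46 and 3.37 CPM in control and 67.4 and 83.1 CPM in cKO, with both cKO libraries far above both controls (a log2 change of 3.76, SE 0.33, adjusted p = 0.00514). It was the 1 of 6 members tested that passed (3.44% of 12090 genes passed, 3.23% higher and 0.215% lower), and it passed under 16 of 16 alternatives. Cells with a Cd80 UMI went from 2.19 and 1.18% to 18.9 and 28.6%, or from 0.918 and 0.477% to 9.61 and 13.1% after thinning to 2000 UMIs.

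Icam1 was 9.54 and 9.70 CPM in control CD4 T cells and 19.6 and 25.3 CPM in cKO (a log2 change of 1.10, adjusted p = 0.0518, and 8.61e-06 when blocked by batch, DESeq2 0.0423). By DESeq2 2 members passed (5.77% of genes) and with the block 4 (29.1% of genes), the others being Cd86 (17.6 and 16.2 CPM, then 14.6 and 8.46 CPM, −0.67, blocked adjusted p = 0.00668) and Cd274 (58.3 and 42.6 CPM, then 82.8 and 64.3 CPM, 0.43, blocked adjusted p = 0.00198). The makeup of the sum differed between genotypes. Tfh-like cells, the follicular helper T cells, numbered 31 and 11 in control and 325 and 589 in cKO, Treg-like cells 179 and 174 against 385 and 617, and naive CD4 T-like cells 986 and 924 against 592 and 579. In a sum over classes, more cells of a type and more RNA per cell cannot be told apart, so each class was also read alone, although a class can pool unlike clusters itself.

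Cd80 was 34.1 and 21.5 CPM in control and 108 and 86.6 CPM in cKO Treg-like cells (a log2 change of 1.70, adjusted p = 0.0279). Cd86 went the other way, from 61.9 and 59.3 CPM to 21.9 and 9.63 CPM (−1.98, adjusted p = 0.0252). These were the 2 of 5 members that passed in Treg-like cells (1.37% of genes). There were 3 at an unadjusted p under 0.05 (12.2%), 2 by DESeq2 (1.8%) and 4 with the block (19.5%). The block added Icam1 (28.6 and 25.6 CPM in control, 45.1 and 44.5 CPM in cKO, blocked adjusted p = 0.0268) and Cd274 (135 and 101 CPM, then 117 and 68.3 CPM, blocked adjusted p = 0.0266). The Treg-like class pooled 4 clusters, and the genotypes filled them unequally. The cluster led by Il2ra, Hdac9, Coro2a and Gpr83 held 78.8 and 79.3% of the control cells and 14.5 and 6.48% of the cKO cells. The cluster led by Neb, Itgae, Penk and Tnfrsf9 held 10.1 and 12.1% against 48.6 and 53.5%, and the cluster led by Il1rl1, S100a4 and Ccr2, which had no Foxp3 among its 10 leading genes, 8.94 and 5.17% against 29.9 and 28.8%. Within the first of these Cd80 overlapped between genotypes, at 24.1 and 14.5 CPM in control and 8.94 and 27.3 CPM in cKO, as did Cd86, at 62.9 and 68.6 CPM against 89.4 and 31.9 CPM, from 3 and 6 Cd80 UMIs in the 56 and 40 cKO cells. In the other clusters a control library held under 20 cells, so the genotypes could not be compared there. The cKO cells of the Itgae cluster had Cd80 at 145 and 89.4 CPM and Cd86 at 13.98 and 6.76 CPM. For the Treg-like class, too, the genotype difference and the spread of cells over its clusters cannot be told apart.

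In Tfh-like cells Cd80 was 157 and 167 CPM in cKO and 52.8 CPM, from 13 UMIs, in the first control library, and with under 20 cells in the second there was no test.

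In Th1-like cells Cd80 was 2.15 and 1.10 CPM in control and 13.6 and 29.9 CPM in cKO (a log2 change of 2.72, adjusted p = 0.0618, and 0.00385 when blocked by batch). In naive CD4 T-like cells it was 0.428 and 0.549 CPM in control and 0.525 and 0.477 CPM in cKO, too low to be tested. CD8 T cells had 0.693 and 0.445 CPM against 3.35 and 2.71 CPM (1.94, adjusted p = 0.146), and the adhesion receptor Cd44 was the 1 related gene that passed there (22.6 and 20.3 CPM, then 56.2 and 50.7 CPM, adjusted p = 0.0433). The few CD4 T cells found in the YFP+ libraries had 3.46 and 0 CPM in control, from 3 UMIs in 171 cells and 0 in 28 cells, and 46.6 and 43.9 CPM in cKO, from 44 UMIs in 195 cells and 5 in 21 cells (adjusted p = 0.00211, 1 of 2 members tested, where 1.1% of genes passed). Cd80 was high enough to be tested there through the cKO libraries alone, and DESeq2 gave it no adjusted p. The receptors Tnfrsf4 (73.8 and 38.4 CPM, then 185 and 554 CPM, adjusted p = 0.000224) and Pdcd1 (41.5 and 0 CPM, then 146 and 185 CPM, adjusted p = 0.00211) and the related ligand Tnfsf8 (109.5 and 19.2 CPM, then 445 and 360.4 CPM, adjusted p = 0.000226) passed in the same cells. With the Tfh-like cells left out of the sum in total libraries, the CD4 T difference of Cd80 was 3.13 on the log2 scale (adjusted p = 0.0161).

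**Figure D3:**
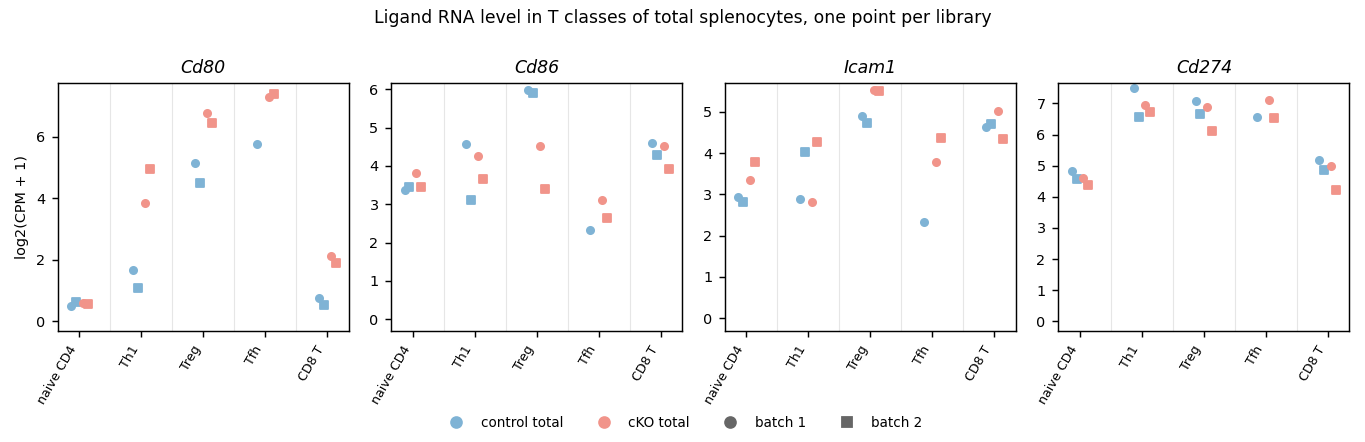
Level of Cd80, Cd86, Icam1 and Cd274, as log2(CPM + 1) on the vertical axis, in T cell classes of the total libraries; each point is 1 library, colours are genotypes, and the Tfh-like value of the second control library, with under 20 cells, is not drawn. In Treg-like cells Cd80 is 108 and 86.6 CPM in cKO against 34.1 and 21.5 CPM in control, and Cd86 is 21.9 and 9.63 CPM against 61.9 and 59.3 CPM.

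Markers of B cells in the CD4 T sum overlapped between genotypes, at 96.6 and 130 CPM in control and 93.0 and 116 CPM in cKO, whereas GCB markers were 125 and 113 CPM against 187 and 174 CPM and plasma cell markers 49.2 and 61.8 CPM against 70.5 and 124 CPM. Lists of myeloid cells were also higher in cKO without overlap: monocyte (55.8 and 77.2 CPM, then 149 and 175 CPM), macrophage (4.13 and 5.79 CPM, then 24.7 and 14.97 CPM) and cDC1 (20.1 and 20.3 CPM, then 48.03 and 77.6 CPM). The mature dendritic cell list overlapped, with 151 and 182 CPM against 161 and 145 CPM. Most of the monocyte sum was Cebpb (40.05 and 48.2 CPM, then 117 and 143 CPM), while Lyz2 was 2.75 and 12.8 CPM in control and 3.65 and 5.67 CPM in cKO. Most of the cDC1 sum in cKO was Itgae (7.31 and 4.04 CPM, then 32.6 and 53.7 CPM), which regulatory T cells are also known to express, and Xcr1 and Clec9a were at 0.424 CPM or less in every library. The part of these lists in the Cd80 difference was not tested. The receptors of the ligands in the same cells gave 2 of 9 higher and 0 lower: Tnfrsf4, which encodes OX40 (42.7 and 69.1 CPM, then 197 and 399 CPM, log2 fold change 2.29, adjusted p = 0.0356), and Pdcd1, which encodes PD-1 (23.9 and 18.2 CPM, then 159 and 216 CPM, 3.03, adjusted p = 0.00556). Of 14 related ligands tested 2 were higher, Pdcd1lg2 (17.7 and 20.2 CPM, then 80.0 and 108 CPM, 2.19) and Tnfsf8 (120 and 117 CPM, then 315 and 466 CPM, 1.60). Tnfrsf4 and Pdcd1 are also known as genes of activated and follicular helper T cells, whose numbers are given above.

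Dendritic cells of the YFP+ libraries, 17 and 3 in control and 25 and 3 in cKO, were too few to be compared. Dendritic cells of the total spleen, 130 and 110 cells in control and 146 and 77 in cKO, were not shown to differ between genotypes in any ligand. Cd80 was 283 and 173 CPM in control and 269 and 158 CPM in cKO, and its spread between libraries of 1 genotype exceeded the gap between genotypes (a log2 change of −0.09, SE 0.35). Cd86 was 768 and 501 CPM against 828 and 464 CPM, Icam1 122 and 94.7 CPM against 116 and 79.9 CPM, and Cd274 233 and 109 CPM against 149 and 122 CPM, with overlap for each, whereas 25% of all genes did not overlap. By edgeR 0 of 6 members tested passed (0% of 9035 genes), and 0 at an unadjusted p under 0.05 (1.97%), 0 by DESeq2 (0%) and 0 with the block (0%). Data were also simulated at the depth of these libraries, with a fixed dispersion that was not estimated from them. There the test recovered 52% of genes changed by 1 and 88% of those changed by 2 on the log2 scale. Recovery at the spread seen between these libraries was not measured, and a smaller difference may not be detectable at this depth.

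Over 34 means of the B cell classes, 1 for each class and group with enough cells in both libraries, the genes whose pattern of log2(CPM + 1) was most like each ligand's were named, as a description across points that share libraries. For Cd80 they were Itgb1 (Pearson r = 0.85), Zbtb32 (0.825) and Cd44 (0.816). For Cd86 the first was Map4k5 (0.953), for Cd40 Zfp800 (0.938), for Icosl Neurl3 (0.93), for Icam1 Magohb (0.906) and for Cd274 Tmcc3 (0.931). Cd70 and Tnfsf4 were below the minimum mean of 5 CPM for this comparison.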

How the data were processed

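Single cells were captured with the SeekOne DD 3′ kit from 8 libraries (4 groups, 2 batches). The deposited UMI counts per gene and cell were made by the authors, and the labels list GRCm38/mm10 and no aligner (not given in the sources used here). Barcodes with at least 200 UMIs, at least 100 genes and at most 10% mitochondrial UMIs were kept. Libraries shared 0.55 to 0.974% of the smaller library's barcodes. A simulated-doublet score marked 0.927 to 3.123% of barcodes, which were kept, with their removal as an alternative; in the YFP+ libraries its own threshold marked 0.01 to 0.022%, so the median threshold of the other libraries was used there.

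Counts were scaled, 2000 variable genes reduced to 30 components and clustered (Leiden, 20 neighbours, resolution 1; igraph 0.11.9, Python 3.11.15). Clusters took names from fixed markers by rules adjusted after the clusters, but not the comparisons between groups, had been seen, and 1.348 to 6.816% of the cells of a library stayed unnamed. The class names are rebuilt here and may differ from the study's.

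Counts were summed per library and class (at least 20 cells) and tested with edgeR 4.0.16 in R 4.3.3 (TMM scaling, filterByExpr, robust quasi-likelihood F test, Benjamini-Hochberg over all genes tested, threshold 0.05, prior count 2 for fold changes); a comparison between classes or clusters had the library as a block. DESeq2 1.42.0, library-size scaling, no filter, other resolutions, a stricter cell filter and leaving out each library were alternatives. Levels are unscaled CPM. A member whose libraries were too low for filterByExpr was not tested. Simulated data had a fixed dispersion that was not estimated from the libraries, so they do not measure recovery at the observed spread. In those of the YFP+ pre-GCB-like comparison (12939 genes) 64% of genes changed by 1 and 82% of those changed by 2 on the log2 scale were recovered. In the dendritic comparison the step ran on 9034 genes.

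The labels give each library a batch, and same-batch libraries deviated together (correlations 0.2539 to 0.737), so the batch pairs them and was fitted as a block where stated. With 2 pooled libraries a group, p-values refer only to these libraries. The edgeR test draws its estimate of spread partly from all genes tested. Fits with the block, and those between classes or clusters, leave few residual degrees of freedom. Their smallest p-values therefore rest largely on that shared estimate and are not strong evidence from replicates. The 8 members and the lists of 9 receptors and 17 related ligands were chosen with earlier results of these data known. All members are named, and of the lists the genes that passed in a comparison described.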

Additional observations from a re-analysis of the deposited data

Results flagged for a closer look

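The genotype difference in YFP+ cells differed between pre-GCB-like and naive B-like cells, by the interaction term of 1 model over both classes, for Cd80 (3.17 on the log2 scale, adjusted p = 5.74e-09), Icam1 (0.71), Icosl (0.59, DESeq2 adjusted p = 0.223), Cd86 (−0.96) and Cd274 (−1.03). For Cd80 the difference was positive in one class (50.3 and 23.5 CPM in control, 85.2 and 77.1 CPM in cKO) and negative in the other (8.33 and 8.88 CPM in control, 2.49 and 1.65 CPM in cKO). The naive B-like difference did not pass by edgeR when tested alone. In that class genotype and cluster cannot be told apart.

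Within the YFP+ pre-GCB-like cells the genotype difference differed between the cycling and the other cluster for Cd80 (2.12, adjusted p = 7.92e-12), Cd86 (−1.09), Cd70 (2.17) and Tnfsf4 (3.86). Tnfsf4 had 2.24 and 0 CPM in control and 57.8 and 53.5 CPM in cKO cycling cells, against 2.31 and 0 CPM and 5.03 and 2.32 CPM in the other cluster. No explanation of these differences was tested.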

How the results depend on the processing

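Of the values recomputed for single members, 768 kept their side of the threshold (23 of them with the other sign, past the threshold in neither setting), 35 passed only under the alternative, 14 no longer passed and 7 changed sign with a call. With 1 library left out the numbers were 321 (41 of them with the other sign), 15, 7 and 0. Cd80 in the other pre-GCB-like cluster, for one, was 0.20 without the first control YFP+ library. In YFP+ pre-GCB-like cells 6 members passed (5 to 6 with 1 library left out) and 1 without the cycling cluster, chosen after seeing the data, where Cd80 was −0.64. Cd80 passed under 12 of 17 alternatives there (library-size scaling adjusted p = 0.0958, classes defined on control cells 0.122, no centring 0.451) and Icam1 under 11 of 17 (without the first cKO YFP+ library 0.159, without the second 0.303, without the second control YFP+ library 0.0779). The cycling cluster alone gave 6 to 7 with 1 library left out. In YFP+ naive B-like cells, with 0 passing, 1 passed by DESeq2, 1 without the filter, 1 at resolution 0.5, 3 with the batch block and 1 to 1 with 1 library left out. In GCB-like cells, with 0, there were 1 without the filter, 3 with the block, 0 to 2 with 1 library left out and 7 with control-defined classes, where Cd80 (3.47), Cd40 (0.88), Cd70 (2.90) and Icam1 (0.86) changed sign. In total naive B-like cells the block gave 2. In CD4 T cells, with 1, there were 2 by DESeq2, 2 by library size, 2 without the filter, 2 at resolution 1.5, 4 with the block and 1 to 4 with 1 library left out. Between sorts in control naive B-like cells, with 0, there were 1 by DESeq2, 1 without the filter, 2 with the block and 0 to 1 with 1 library left out, and in cKO 2 with the block. The class interaction gave 5 (3 to 5 with 1 library left out), with Icosl at −0.47 at resolution 1.5 and −0.022 without centring. The other pre-GCB-like cluster gave 1 (0 to 1 with 1 library left out), 0 by library size and 3 with the block. The cause of these changes was not tested. MZB-like, B1-like, plasma cell-like and Treg-like cells were tried with DESeq2 and the block alone, and each member that passed by edgeR passed by both.

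Library-size scaling moved the median log2 fold change of all genes from 0.02 to −0.13 in YFP+ naive B-like cells and from −0.01 to −0.13 in the other cluster, and members are read relative to it. Counts of all genes that passed moved by over 1.5 times as follows. YFP+ pre-GCB-like cells went from 1288 to 832 by library size, 2007 without the filter, 3627 with the block, 5097 at resolution 1.5, 3258 without centring, 299 without the cycling cluster and 2892 in that cluster alone. YFP+ naive B-like cells went from 66 to 331 by DESeq2, 13 by library size, 590 without the filter, 2155 with the block, 102 without centring and 37 without the 2 clusters with Il4i1 among their leading genes. GCB-like cells went from 145 to 266 by DESeq2, 33 by library size (84.8% higher, against 66.2%), 504 without the filter, 1080 with the block and 3204 with control-defined classes. Total naive B-like cells went from 25 to 216 by DESeq2, 300 without the filter, 2321 with the block, 9 at resolution 0.5, 12 with control-defined classes, 41 without centring and 9 without those 2 clusters. CD4 T cells went from 416 to 697 by DESeq2, 1232 without the filter, 3518 with the block, 628 in a model of all 8 libraries and 144 without Tfh-like cells. Dendritic cells went from 0 to 21 without the filter and 1 without centring. Between sorts, naive B-like cells went from 1 to 61 by DESeq2, 76 without the filter, 739 with the block, 0 at resolution 0.5 and 4 without centring in control, and from 0 to 62, 251, 3285, 1 (all 8 libraries) and 2 (no centring) in cKO. The sort interaction in naive B-like cells went from 0 to 7 by DESeq2, 20 without the filter and 308 with the block, and the class interaction from 1903 to 906 by DESeq2, 5447 at resolution 1.5, 1000 with control-defined classes and 4834 without centring. With 1 library left out they spanned 684 to 2119 in YFP+ pre-GCB-like, 1336 to 3472 in cycling (from 2892), 190 to 462 in other-cluster, 167 to 537 in YFP+ naive B-like, 200 to 997 in GCB-like, 108 to 403 in total naive B-like, 465 to 1224 in CD4 T and 5 to 99 in dendritic cells, 58 to 103 and 69 to 181 between sorts in control and cKO and 861 to 1990 for the class interaction. The other cluster went from 299 to 80 by library size (71.25% higher, against 59.5%), 596 without the filter and 1597 with the block. Dendritic cells at resolution 0.5 gave no value. Classes with under 20 cells in a library (YFP+ transitional, dendritic, myeloid, CD8 T, NK-like and, taken singly, CD4 T classes, total T-bet+, Tfh-like, cDC1-like, mature DC-like and macrophage-like cells) could not be compared, and counts limit Cd70 and Tnfsf4 outside the cKO YFP+ pre-GCB-like cells.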
